A study of Mus musculus with 2 samples.

Results

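The miRNAs described here are the mature products of the hairpins miR-21a, miR-21b, miR-21c, miR-146a, miR-146b and miR-155, a group chosen by name as miRNAs whose transcription is induced by the inflammatory transcription factors NF-κB or STAT3. Of 1147 entries in the miRNA table, 9 belonged to this group, namely mmu-miR-21a-5p, mmu-miR-21a-3p, mmu-miR-21b, mmu-miR-21c, mmu-miR-146a-5p, mmu-miR-146a-3p, mmu-miR-146b-5p, mmu-miR-146b-3p and mmu-miR-155-5p. The other arm of miR-155, miR-155-3p, was not listed in the table. Small RNA was sequenced from the jejunal smooth muscle (tunica muscularis) of C57BL/6 mice at 15 days of age, with 1 library per genotype. *Dnmt1*-KO mice lacked the maintenance DNA methyltransferase *Dnmt1* in smooth muscle cells, through a *Cre*-eGFP transgene under the *Myh11* promoter and loxP-flanked *Dnmt1* alleles. *Dnmt1*-WT mice carried the same transgene, so *Cre* and eGFP were common to both groups. The labels give both samples the same strain, floxed allele included. The paper, however, describes *Dnmt1*-WT mice by the transgene alone. It names as *Dnmt1*-KO the mice with *Cre*, both loxP sites and the deletion. The methods list males and females for each genotype and do not say how their RNA was combined. One free-text label attached to the WT sample gives the KO genotype instead, against its title and its genotype field, which were followed. Because *Dnmt1* mRNA is not in small RNA libraries, the genotypes could not be checked here by the deleted gene. With 1 library per genotype, no spread between animals could be estimated, so each difference below is between 2 libraries and carries no p-value.

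As background, a miRNA is cut from a hairpin precursor, and the mature strand guides the Argonaute complex to mRNAs that pair with its seed, the bases 2 to 8 from its 5′ end. miR-21 is transcribed in response to STAT3 and AP-1 and is abundant in many activated, injured and proliferating cells, where it represses targets such as *Pdcd4* and *Spry1*. miR-146a and miR-146b are induced by NF-κB downstream of Toll-like and interleukin-1 receptors and repress the adaptors *Traf6* and *Irak1*, which makes them brakes on the pathway that induces them. miR-155 is cut from the transcript *Mir155hg* (also called *Bic*) in activated macrophages and lymphocytes, and represses targets such as *Socs1* and *Inpp5d* that restrain inflammatory signalling.

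The mature sequences show which of these miRNAs share targets and which reads could be confused. All 9 members on the table matched a RefSeq mature sequence (GRCm38.p6). The 7 other than the rare 3p products of miR-146a and miR-146b are printed 5′ to 3′ with the seed in capitals.
miR-146a-5p: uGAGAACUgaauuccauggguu
miR-146b-5p: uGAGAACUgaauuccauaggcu
miR-21a-5p: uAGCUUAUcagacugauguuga
miR-21c: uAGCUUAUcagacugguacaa
miR-21b: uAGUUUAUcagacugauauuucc
miR-155-5p: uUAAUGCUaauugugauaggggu
miR-21a-3p: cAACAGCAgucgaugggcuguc

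miR-146a-5p and miR-146b-5p have the same seed and differ at 2 of 22 bases, G18A and U21C (the base of miR-146a-5p first, positions counted from 1 at the 5′ end). Their first 17 bases are identical, so only a read that reaches base 18 can be assigned to 1 of them. miR-21a-5p and miR-21c share the seed and their first 15 bases, whereas miR-21b carries C4U inside the seed and differs from miR-21a-5p at 4 of 22 bases. Among the 10 mature products of these hairpins in RefSeq, no other had the seed of miR-146, miR-21a or miR-155. Aligned from the 5′ end, miR-21a-5p and miR-155-5p match at 9 of 22 bases, miR-146a-5p and miR-155-5p at 10, and miR-146a-5p and miR-21a-5p at 6, so reads of these 3 families are readily told apart.

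The hairpins lie in different transcripts. On GRCm38, miR-21a (chr11:86584067-86584158, minus strand) lies in an exonic untranslated region of *Vmp1*, a gene of autophagy, on the same strand. miR-146a, annotated as *Mir146* (chr11:43374397-43374461, minus strand), overlaps no other gene in GENCODE M21, and the same holds for miR-21c (chr8:128278148-128278225, minus strand). miR-146b (chr19:46342762-46342870, plus strand) lies in an intron of *Mfsd13a*, and miR-21b (chr3:29636744-29636851, plus strand) in an intron of *Egfem1*. miR-155 (chr16:84714140-84714204, plus strand) lies in an exon of its host transcript *Mir155hg*. Thus miR-146a and miR-146b, which share a seed, are separate genes on chromosomes 11 and 19.

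The values, called scaled reads here, were taken as reads multiplied by a factor close to 1 for each library. Among values from 20 to 300 this held for 88.6% in WT and 91.1% in KO, and the others were fractional. The *Dnmt1*-WT library held 5741906 scaled reads and the *Dnmt1*-KO library 4754677. Over the 313 entries detected in each library and averaging 100 or more (abundant entries below), the log2 KO/WT ratio had a median of -0.03 and an SD of 0.76, which is the only scale of variation these libraries offer. Intervals are 95% and cover counting error only, since reads are not independent molecules. Because the KO total was lower, setting the totals equal multiplied every KO/WT ratio by 1.21.

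miR-21a-5p, the guide strand of miR-21a, was listed at 6684 scaled reads in *Dnmt1*-WT and 13416 in *Dnmt1*-KO. The KO value was thus 2.01 times the WT value (exact binomial interval 1.95 to 2.07), and the interval spans the 2-fold line. Its share of all scaled reads was 0.116% in WT (Wilson interval 0.114 to 0.119%) and 0.282% in KO (0.277 to 0.287%), and its rank among the entries went from 56 to 41. Of the 313 abundant entries, 16 had a higher KO/WT ratio. With equal totals the ratio was 2.42, clear of 2.

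The opposite strand, miR-21a-3p, was rare in both libraries, at 41.1 scaled reads in WT and 53.9 in KO, a ratio of 1.31 (0.857 to 2.02) that includes 1. For each 100 reads of both arms, the 3p arm gave 0.611 in WT (0.439 to 0.829) and 0.40 in KO (0.30 to 0.521). The 3p/5p balance in KO was 0.653 times that in WT (exact interval 0.426 to 1.01), so at this depth a change of the arm balance was not detectable. A balance within a library does not depend on how the libraries were scaled. Of 152 hairpins whose arms each averaged 10 or more, 65 had a larger absolute change of arm balance than miR-21a. The copies miR-21b and miR-21c were each listed at 0 in WT and 0.3 in KO, less than 1 read, and no ratio is given for them. Nearly all listed signal of the miR-21a, miR-21b and miR-21c hairpins was thus that of miR-21a-5p.

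miR-146a-5p was the most abundant member in both libraries, at 11058 scaled reads in *Dnmt1*-WT and 13890 in *Dnmt1*-KO. The KO/WT ratio was 1.26 (1.225 to 1.29). This is a small difference beside the scatter of the table: 192 of the 313 abundant entries were at least as far from a ratio of 1. The share of the library was 0.193% in WT (0.189 to 0.196%) and 0.292% in KO (0.287 to 0.297%), and with equal totals the ratio was 1.52.

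miR-146b-5p, the product with the same seed from the other chromosome, was listed at 1864 scaled reads in WT and 5307 in KO. Its ratio of 2.85 (2.70 to 3.0) was the highest of the 5 members averaging 10 or more. Of the 313 abundant entries, 6 had a higher ratio. Its share was 0.0325% in WT (0.0310 to 0.0340%) and 0.112% in KO (0.109 to 0.115%), and its rank went from 105 to 59.

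**Figure D1:**
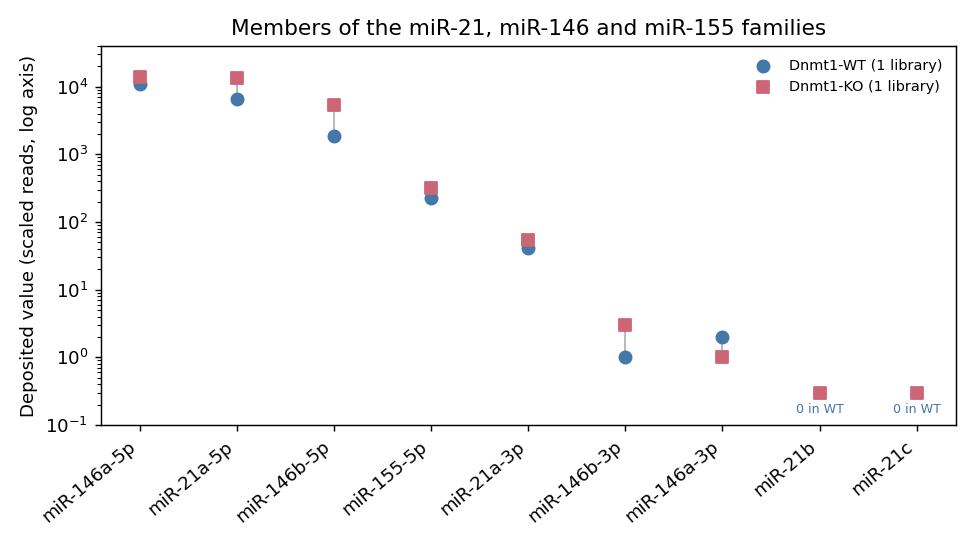
Scaled reads (log axis) of the 9 members in the *Dnmt1*-WT library (circles) and the *Dnmt1*-KO library (squares), ordered by mean. The gap between the libraries is widest for miR-146b-5p among the 5 members averaging 10 or more, and 4 members lie at or under 3 scaled reads.

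The balance of the miR-146 paralogs therefore differed between the libraries. There were 0.169 scaled reads of miR-146b-5p per read of miR-146a-5p in *Dnmt1*-WT (0.160 to 0.177) and 0.382 in *Dnmt1*-KO (0.370 to 0.394). In other words, miR-146a-5p exceeded miR-146b-5p by 5.93 times in WT and by 2.62 times in KO. The share of miR-146b-5p in the sum of both was 14.4% in WT (13.8 to 15.0%) and 27.6% in KO (27.0 to 28.3%). The balance in KO was 2.27 times that in WT (2.14 to 2.41), a value free of the scaling of the libraries, and miR-146a-5p remained the more abundant paralog in both. Summed, miR-146a-5p and miR-146b-5p went from 12922 to 19196 scaled reads, a ratio of 1.49 (1.45 to 1.52). Reads ending before base 18 cannot be assigned to either paralog, and how such reads were treated is not given in the sources used here.

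The opposite strands were nearly absent. miR-146a-3p was listed at 2.0 scaled reads in WT and 1.0 in KO (ratio 0.50, counting interval 0.00843 to 9.55), and miR-146b-3p at 1.0 and 3.0 (ratio 3.0, 0.240 to 157). These intervals allow a change in either direction. Both hairpins thus gave their 5p product almost alone.

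To place the shift of the miR-146 balance, all pairs of paralogs were listed that share a number and an arm, differ in their letter and average 1000 or more each. Among these 55 pairs from 13 families, the absolute log2 change of balance had a median of 0.38 and was 1.18 for miR-146a-5p and miR-146b-5p. Only 2 pairs changed more, miR-10a-5p with miR-10b-5p (1.52) and miR-181b-5p with miR-181c-5p (1.24). Pairs share members and are not independent. Most of the 55 come from the let-7, miR-30 and miR-181 families, which therefore weigh heavily on the median and on the place of the miR-146 pair. With a minimum mean of 100 there were 95 pairs, of which 8 changed more.

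**Figure D2:**
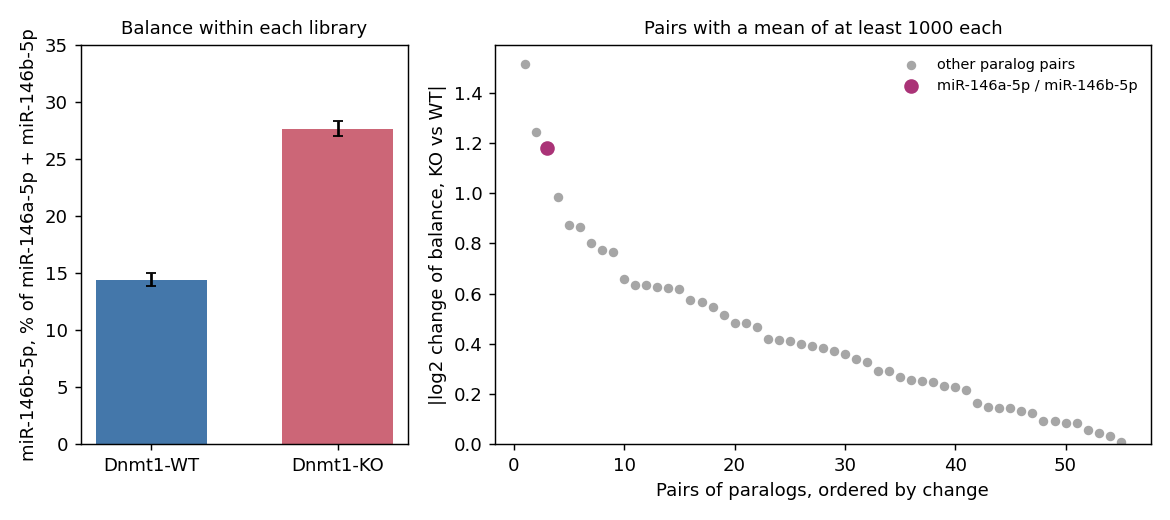
Left, the share of miR-146b-5p in the summed miR-146a-5p and miR-146b-5p of each library, in percent, with 95% exact binomial intervals for counting error (14.4% in *Dnmt1*-WT and 27.6% in *Dnmt1*-KO, 1 library each). Right, the absolute log2 change of balance between the libraries for 55 pairs of paralogs, in order, with the miR-146 pair in place 3 at 1.18.

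miR-155-5p, the miRNA most closely tied to activated leukocytes, was much rarer. It was listed at 226.6 scaled reads in *Dnmt1*-WT and 318.1 in *Dnmt1*-KO, 0.00395% (0.00347 to 0.00450%) and 0.00669% (0.00600 to 0.00747%) of the scaled reads. On the deposited scale the ratio of 1.40 (1.18 to 1.67) lay above 1 and below 2 within counting error, whereas with equal totals it was 1.70 and the upper limit of its interval passed 2. On the deposited scale 147 of the 313 abundant entries were at least as far from a ratio of 1. Relative to miR-146a-5p, miR-155-5p changed by 1.12 times (0.938 to 1.33), which includes no change. Relative to miR-146b-5p it stood at 0.493 of its WT level (0.411 to 0.592). Relative to miR-21a-5p it stood at 0.699 (0.586 to 0.835). At this depth a difference between miR-155-5p and miR-146a-5p in how far they moved was not detectable, whereas both moved less than miR-21a-5p and miR-146b-5p beyond counting error.

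The order of the levels, from miR-146a-5p through miR-21a-5p, miR-146b-5p and miR-155-5p to miR-21a-3p, was the same in both libraries, but the distances changed. miR-146a-5p exceeded miR-21a-5p by 1.65 times in WT (1.60 to 1.71) and by 1.04 times in KO (1.01 to 1.06), so the leading pair had nearly the same level in KO. miR-21a-5p exceeded miR-146b-5p by 3.59 times in WT (3.41 to 3.78) and by 2.53 times in KO (2.45 to 2.61). The products compared are 22 or 23 bases long, so length adds little to these level ratios. Adapter ligation depends on sequence, and a level ratio between miRNAs is therefore not a ratio of molecules, although its change between the libraries is less affected.

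The study's 2-fold threshold was applied to the ratio of scaled reads. Counting an entry listed in 1 library alone as past the threshold, the KO value was at least 2-fold above WT for 5 of the 9 members, beside 26.7% of all 1147 entries, and 1 was at least 2-fold lower, beside 23.1%. Of those 5, miR-21b, miR-21c and miR-146b-3p rested on no more than 3 reads, as did the lower member, miR-146a-3p. Of the 5 members averaging 10 or more, 2 passed upwards, beside 11.4% of 543 entries, and 0 were lower, beside 9.94%. At an average of 100 or more, 2 of 4 members were higher, beside 6.33% of 316 entries, and 0 were lower, beside 8.86%. The members past the threshold were miR-146b-5p and miR-21a-5p, the latter just inside it at 2.01. The nearest member outside was miR-155-5p at 1.40. With equal totals the same 2 members passed, beside 13.0% of the 316 entries.

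**Figure D3:**
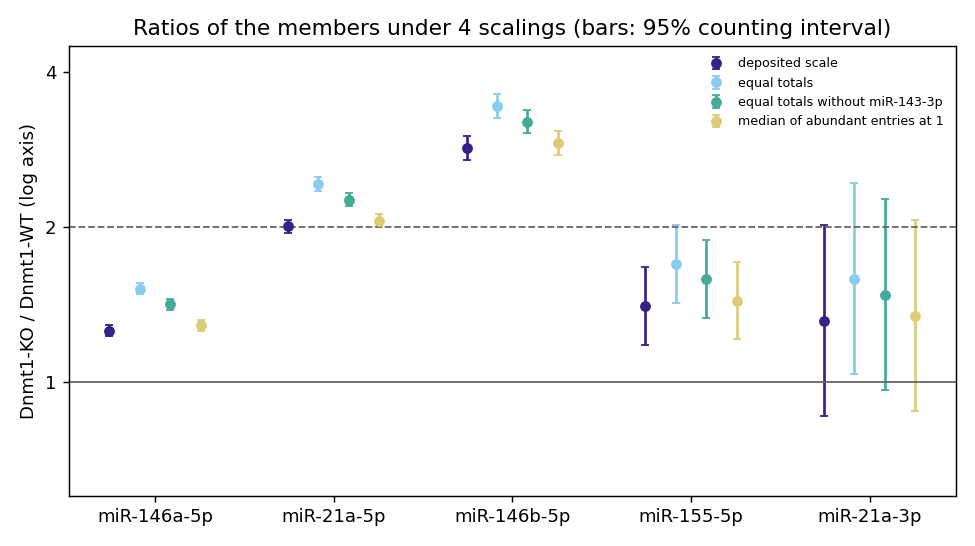
KO/WT ratio (log axis) of the 5 members averaging 10 or more under the deposited scale and 3 other scalings of the 2 libraries, with bars for the 95% counting interval. The dashed line marks 2 and the solid line 1. Every point lies above 1, and each of the 3 other scalings can only raise the ratios. The interval of miR-21a-3p crosses 1 except with equal totals.

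The miRNAs whose pattern was most like that of an abundant member were found from the log2 KO/WT ratio over the 2 libraries, among 135 other mature entries averaging 1000 or more. Nearest to miR-21a-5p were miR-148a-3p, with a ratio of 1.98 (1.94 to 2.02), and miR-192-5p, with 1.79 (1.73 to 1.86). Nearest to miR-146b-5p were miR-10b-5p, with 2.84 (2.81 to 2.87), and miR-214-3p, which went from 896.5 to 2489 scaled reads (2.78, 2.57 to 3.0). Nearest to miR-146a-5p were miR-5099, with 1.26 (1.20 to 1.31), and miR-300-3p, with 1.25 (1.18 to 1.33). A single ratio per miRNA defines this likeness.

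A list of 17 other miRNAs that general knowledge gives as induced through NF-κB or STAT3 was set beside the members. Of these, 16 averaged 10 or more, and 7 of them were higher and 9 lower in *Dnmt1*-KO, with a median log2 ratio of -0.14 beside 0.02 over the 531 entries that met the same minimum and were detected in each library. On the deposited scale 0 of the 16 were at least 2-fold higher, beside 11.4% of the 543 entries of that minimum, and 1 was at least 2-fold lower, beside 9.94%, counts too small to set the list apart from the table. Equal totals put 4 of them past 2-fold upwards and 0 downwards, and the median log2 ratio at 0.14. The 16 ratios ran from 0.458 to 1.96, the highest of them close to the 2.01 of miR-21a-5p.

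The higher members of that list came from 2 clusters and miR-9. miR-132 and miR-212 are cut from 1 transcript that responds to CREB and to Toll-like receptor signals. miR-132-3p went from 481.4 to 866.5 scaled reads (ratio 1.80, 1.61 to 2.02) and miR-212-3p from 76.2 to 149.6 (1.96, 1.48 to 2.62). Their 5p products moved less, miR-212-5p from 271.8 to 344.0 (1.27, 1.08 to 1.49) and miR-132-5p from 403.1 to 419.8 (1.04, 0.906 to 1.20). The X-linked pair miR-221 and miR-222, known regulators of *Kit* and of proliferation, had ratios of 1.75 (1.63 to 1.88) and 1.67 (1.51 to 1.86) for the 3p products. miR-9-5p, which is also a neural miRNA, had a ratio of 1.09 (1.024 to 1.17).

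Among the lower members, miR-181b-5p, linked to STAT3, went from 28135 to 12876 scaled reads (ratio 0.458, 0.448 to 0.467) and miR-125a-5p from 129305 to 68521 (0.530, 0.525 to 0.535). miR-99b-5p and let-7e-5p, cut from the same transcript as miR-125a, stood closer to 1, at 0.895 (0.881 to 0.909) and 0.926 (0.910 to 0.942). miR-9-3p stood at 0.504 (0.409 to 0.619), miR-301a-3p at 0.611 (0.587 to 0.636) and miR-224-5p at 0.634 (0.554 to 0.725). The intervals of miR-31-5p (0.884, 0.757 to 1.03) and miR-187-3p (0.698, 0.454 to 1.06) included 1, and miR-147-3p was at 2.0 scaled reads in WT and 1.0 in KO.

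**Figure D4:**
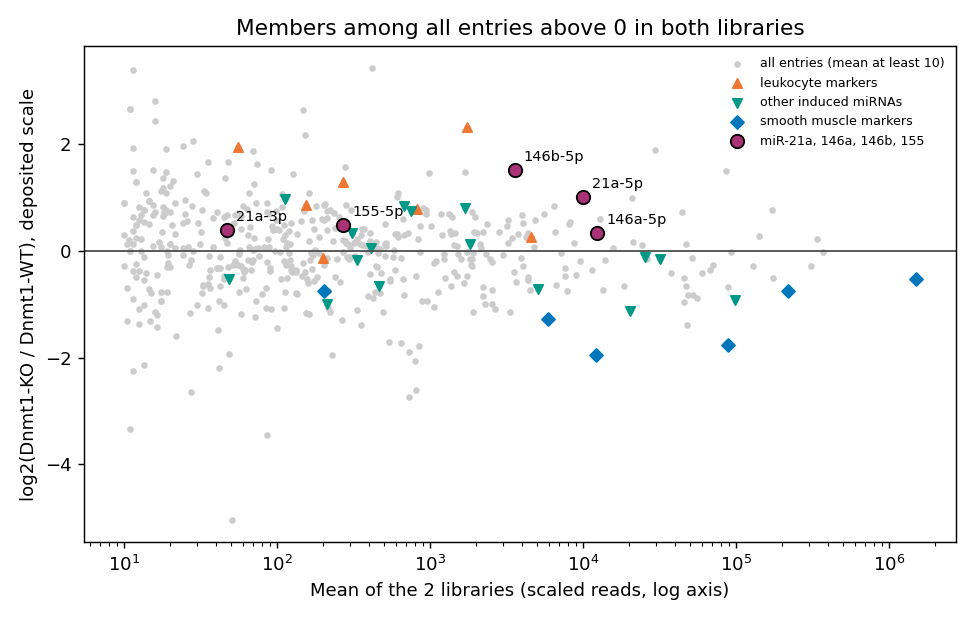
log2 KO/WT ratio on the deposited scale against the mean of the 2 libraries (log axis) for entries detected in each library and averaging 10 or more (grey), with the members outlined and labelled, the other induced miRNAs, and the leukocyte and smooth muscle markers. miR-146b-5p (1.51) and miR-21a-5p (1.01) lie in the upper part of the cloud at their level, and the 6 smooth muscle markers lie below 0.

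The tissue is a mixture of cells, and fewer cells of a type cannot be told apart from less RNA per cell. The smooth muscle markers, which check the labelled tissue, included the most abundant entry of the table, miR-143-3p. All 6 (both arms of miR-143 and miR-145a, miR-133a-3p and miR-133b-3p) were lower in *Dnmt1*-KO, with ratios from 0.259 to 0.694, and their summed level was 38.6% of the WT library and 30.4% of the KO library. The ratios were 0.694 and 0.259 for miR-143-3p and miR-143-5p, 0.598 and 0.413 for miR-145a-5p and miR-145a-3p, 0.295 for miR-133a-3p and 0.597 for miR-133b-3p. Leukocyte markers were mostly higher in KO, with ratios from 0.913 to 5.01. Of 7 leukocyte markers on the table, 6 were higher in KO and 1 was lower, and 3 were at least 2-fold higher, beside 11.4% of the 543 entries averaging 10 or more. Their sum went from 5856 to 9828 scaled reads, a ratio of 1.68. None of them was at 0 in either library. miR-142a-5p, found across blood cell lineages, went from 578.6 to 2898 (ratio 5.01, 4.58 to 5.49), whereas the other arm of its hairpin, miR-142a-3p, had a ratio of 1.82 (1.44 to 2.33). miR-223-3p, a myeloid miRNA, went from 158.5 to 385.9 (2.43, 2.02 to 2.95). The lymphocyte miRNA miR-150-5p had a ratio of 1.73 (1.56 to 1.91), and miR-342-3p, the most abundant of the list, 1.20 (1.15 to 1.25). The lower marker was miR-342-5p, the other arm of that hairpin, at 0.913 (0.746 to 1.12). The ratio of miR-146b-5p thus lay among those of the leukocyte markers, while those of miR-146a-5p and miR-155-5p lay between those of miR-342-3p and miR-150-5p. The part of leukocytes in the members' ratios was not tested.

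Markers of other cells also moved. All 4 red cell markers on the table were higher in KO, beside 268 of the 531 entries detected in each library and averaging 10 or more. Only 2 of the 4 averaged 100 or more, and 1 of the rarer ones had an interval that included 1 (0.836 to 4.55). The sum of all 4 went from 12745 to 47217 scaled reads (ratio 3.70), mostly through miR-486a-5p (3.71), while miR-451a had a ratio of 2.98. Of the 8 epithelial markers, 4 were listed higher and 4 lower, with a summed ratio of 1.25 that became 1.51 with equal totals. The intervals of the 4 lower ones all included 1. The higher of those averaging 100 or more were miR-192-5p at 1.79 (1.73 to 1.86), miR-200b-3p at 1.41 (1.24 to 1.60) and miR-141-3p at 1.30 (0.992 to 1.68). The lower were miR-215-5p at 0.977 (0.945 to 1.01), miR-194-5p at 0.958 (0.892 to 1.03), miR-200a-3p at 0.928 (0.784 to 1.10) and miR-429-3p at 0.886 (0.709 to 1.11). Of the 4 neural markers, 1 was higher and 3 were lower, with a summed ratio of 0.837 that became 1.01 with equal totals. The ratio was 1.28 for miR-129-5p, 0.965 for miR-128-3p, 0.736 for miR-124-3p and 0.453 for miR-138-5p. Their part in the ratios of miR-21a, miR-146 and miR-155 was not tested either.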

How the data were processed

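Small RNA libraries from 1 *Dnmt1*-WT and 1 *Dnmt1*-KO sample were made with a TruSeq Small RNA kit per the labels. A commercial provider did the sequencing for the authors. The methods give GRCm38 as the reference genome, and the submitters' processing notes name Bowtie and mm10. The miRNA release, the treatment of reads matching several miRNAs and the scaling are not given in the sources used here. The deposited values were taken as read counts times a factor per library, which holds for most of the values searched. Searching steps from 0.98 to 1.02 over the values from 20 to 300, 88.6% of 229 WT values were within 0.06 of a whole multiple of 1.00287 and 91.1% of 248 KO values of 0.99722, and the others were fractional. No count test was therefore run. Division by the steps gave 5725474 and 4767932 implied reads, and a count of 0 allows a share of up to 3 reads, 5.24e-05% in WT and 6.29e-05% in KO. The deposited fold change column of the authors was not used.

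Ratios are KO over WT with no pseudocount. Their intervals were taken from the Clopper-Pearson (exact) limits on the fraction of a miRNA's implied reads that were KO, balance changes from the conditional odds ratio with its exact interval, balances and shares within a pair from Clopper-Pearson limits, and shares of a library from Wilson intervals, all at 95% (Python 3.11.15, SciPy 1.17.1). Calculations were tested on simulated data. Members and lists were chosen with earlier results of these data known. Named miRNAs were all members, listed other miRNAs and markers with a mean of at least 100, and the 2 nearest entries to each member with a mean of at least 1000. Other induced miRNAs of lower mean were given by their values. Markers with a mean under 100 entered the counts and sums of their lists without being named. The arm balances of all hairpins were added after seeing the data. Loci were read from RefSeq and GENCODE M21, which gave the same coordinates.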

Additional observations from a re-analysis of the deposited data

How the results depend on the processing

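Setting library totals equal gave KO/WT ratios of 1.52 for miR-146a-5p, 2.42 for miR-21a-5p, 3.44 for miR-146b-5p and 1.70 for miR-155-5p, and doing so without miR-143-3p, the most abundant entry, gave 1.41, 2.26 and 3.21 for the leading 3. These scalings multiply every ratio by a constant, and all 5 members with a mean of at least 10 stayed above 1 under each of the 3 other scalings and with a pseudocount of 1 or 10, with an interval clear of 1 for miR-21a-3p when totals were equal. The counts of 5 members at least 2-fold higher and 1 lower became 2 and 0 with a mean of at least 10 or of at least 100, by leaving out entries of at most 3 reads, and the lower count was also 0 under each of the other scalings. For the other induced miRNAs, the 0 that were at least 2-fold higher became 4 with equal totals, 2 with equal totals without miR-143-3p and 1 with the median of abundant entries set to 0, while the 1 that was lower became 0 with equal totals, also without miR-143-3p. Their median log2 ratio of -0.14 changed sign, to 0.14 and 0.035, under the same settings. The summed leukocyte ratio of 1.68 became 2.03 and 1.89, and the summed smooth muscle ratio of 0.652 became 0.788, 0.734 and, with the median of abundant entries set to 0, 0.668. The summed neural ratio changed side, to 1.01, with equal totals. The share of paralog pairs with a larger shift than miR-146 went from 3.64% to 8.42% with a minimum mean of 100, where more low pairs enter. The balance changes of miR-146 and of the miR-21a arms stayed within their intervals under the alternatives tried. For miR-146 these were adding the 3p arms and a pseudocount of 10, both too small beside the 5p values to move the balance far. Neither bears on reads that fit both paralogs. Depth limits the entries at or under 3 reads, for which no direction can be given, and miR-21a-3p, whose interval includes 1 on the deposited scale and excludes it with equal totals. No paired analysis was possible because there is 1 library per genotype.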
